A study of Homo sapiens with 16 samples.

Results

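The teneurin genes TENM1, TENM2, TENM3 and TENM4 were followed through the H3K27ac regions that changed in LX-2 cells after inhibition of O-GlcNAc transferase. They were selected on the number of lost regions at TENM2, so that the counts given here describe the choice and were not tested. Regions were assigned to a gene when they lay in its body or within 100 kb of its 5′ end. By this rule the 4 genes, of 20033 protein-coding genes, held 20 of the 3507 lost regions and 0 of the 3623 gained regions. TENM2 held 19 of them and TENM4 held 1, whereas TENM1 and TENM3 held none.

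LX-2 is an established line of human hepatic stellate cells with a myofibroblastic phenotype. Control cells received the vehicle (DMSO), and treated cells received OSMI-1, an inhibitor of O-GlcNAc transferase (OGT) called OGTi below, at 50 µM for 24 h. H3K27ac, an acetylation of histone H3 that marks active enhancers and promoters, was measured by chromatin immunoprecipitation and sequencing in 4 libraries per arm, and the other 8 of the 16 samples (input DNA and column purified chromatin) were not used here. All groups are cultures of the same line, and the study describes the replicates as biologically independent experiments.

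What was available for each region is its position on hg38 and its direction, lost or gained under OGTi. The lists give no size of change and no value per library, and the depth behind a region is unknown. A gene with no listed region can carry H3K27ac that did not change or carry none at all, and these cases cannot be told apart. Wide peaks were divided into bins by the authors, so that neighbouring regions that abut may be pieces of a single acetylated domain.

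Teneurins are large transmembrane proteins whose extracellular part holds EGF-like repeats, through which they form dimers, and a barrel-shaped domain of YD repeats that binds partners on neighbouring cells. Those partners include the latrophilins, which are adhesion G protein-coupled receptors. The FLRT proteins can share complexes with teneurins. Teneurins are best known from the nervous system, where they help neurons find and keep their synaptic partners, and their intracellular part has been described to reach the nucleus. Their genes are very long, with large introns toward the 5′ end and several alternative transcript starts.

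TENM2 (ENSG00000145934) spans chr5:166979029-168264157 on the plus strand, a length of 1285 kb. Its 19 regions were all lost, with a count of 19 lost against 0 gained. Across the annotation, 21.6% of protein-coding genes had at least 1 lost region and 30.5% had at least 1 gained region under the same rule. Longer genes can hold more regions, and the members were also set beside the 191 protein-coding genes at least as long as TENM3, the shortest of the 4. Of these long genes, 28.8% had a lost region, 27.2% had a gained region and 109 had neither, and TENM1 and TENM3 were among those with neither. TENM2 and TENM4 were among those with a lost region, and the choice of the genes used these counts, so nothing is read from them here.

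No protein-coding gene had more lost regions than TENM2, and the next count was 17. Relative to length the order was different. Per 100 kb of the searched span TENM2 held 1.37 lost regions, against a median of 2.50 over the 207 genes with 5 or more lost regions. Among them it ranked 187. A gene shorter than 100 kb with 5 lost regions, the fewest admitted, already scored 2.50, so short genes could not fall below this median. The median and the rank thus cannot show whether TENM2 was sparse for its length. Among long genes named below, the density was 1.78 in THSD4, 1.14 in KCNJ6, 0.837 in ATRNL1 and 0.646 in CAMTA1. The absence of gained regions was common among the 207 genes, as 147 of the 207 had none. The 19 regions covered 31352 bp together, 2.44% of the gene body, and made up 0.542% of all lost regions.

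**Figure D1:**
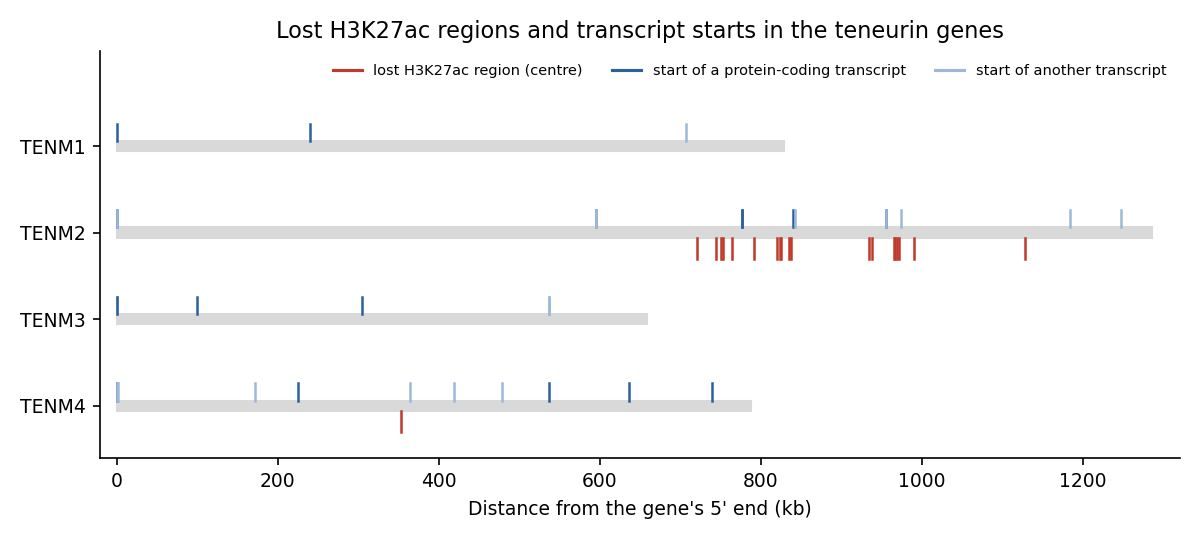
The 4 teneurin genes (grey bars) aligned at their 5′ ends, with distance in kb along the gene, the annotated transcript starts above each bar and the centres of lost H3K27ac regions below it. The 19 lost regions of TENM2 lie beyond 719 kb from its 5′ end, TENM4 has 1 lost region at 353 kb, and TENM1 and TENM3 have none.

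The lost regions of TENM2 lay in the 3′ part of the locus and left its first part empty. No listed region lay within 719 kb of the 5′ end, that is in the first 56.0% of the gene, and the last region ended 156.3 kb before the 3′ end. The 5′ end of the longest transcript, TENM2-203, was thus without a lost or gained region on either side. Upstream of it, the nearest lost region was 3729 kb away and the nearest gained region 7715 kb away. The rule's window of 100 kb before the 5′ end therefore added nothing to the count.

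All 19 regions were intronic, and none touched an exon of any annotated TENM2 transcript. In the reference transcript TENM2-203, with 31 exons, they fell in 4 of 30 introns. Intron 4, the longest at 500.5 kb, held 11 regions, or 2.20 per 100 kb. It makes up 38.9% of the gene body and held 57.9% of the regions, but its first 322.8 kb held none. Intron 5, of 76.4 kb, held 6 regions and had the highest density, 7.85 per 100 kb. Introns 6 and 11 held 1 region each. As a set the regions were thus spread over several introns of the reference transcript and followed a stretch of the gene, not a single intron.

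Within that stretch the regions formed 2 groups and 1 isolated region when gaps above 50 kb were taken as borders. The first group held regions 1 to 11 over 118.7 kb of intron 4, from chr5:167698259-167700862 to chr5:167815011-167816962. A gap of 96.4 kb followed. The second group held regions 12 to 18 over 56.8 kb of introns 5 and 6, from chr5:167913367-167913767 to chr5:167968688-167970156. Lost regions covered 15.9% of the first group and 18.7% of the second. Region 19, at chr5:168105966-168107849 in intron 11, stood 135.8 kb further on.

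Several of the regions were direct neighbours. Among the 18 gaps between regions, 4 were of length 0, between regions 3 and 4, regions 8 and 9, and the run of regions 14, 15 and 16. The median gap was 5804 bp. When regions within 1000 bp of each other were merged, 13 blocks remained. The longest run joined regions 14 to 17 and lay at the 3′ side of intron 5. Widths ranged from 386 bp (region 7) to 2638 bp (region 3), with a median of 1868 bp against 1905 bp over all lost regions, and 7 of the 19 were wider than that median.

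**Figure D2:**
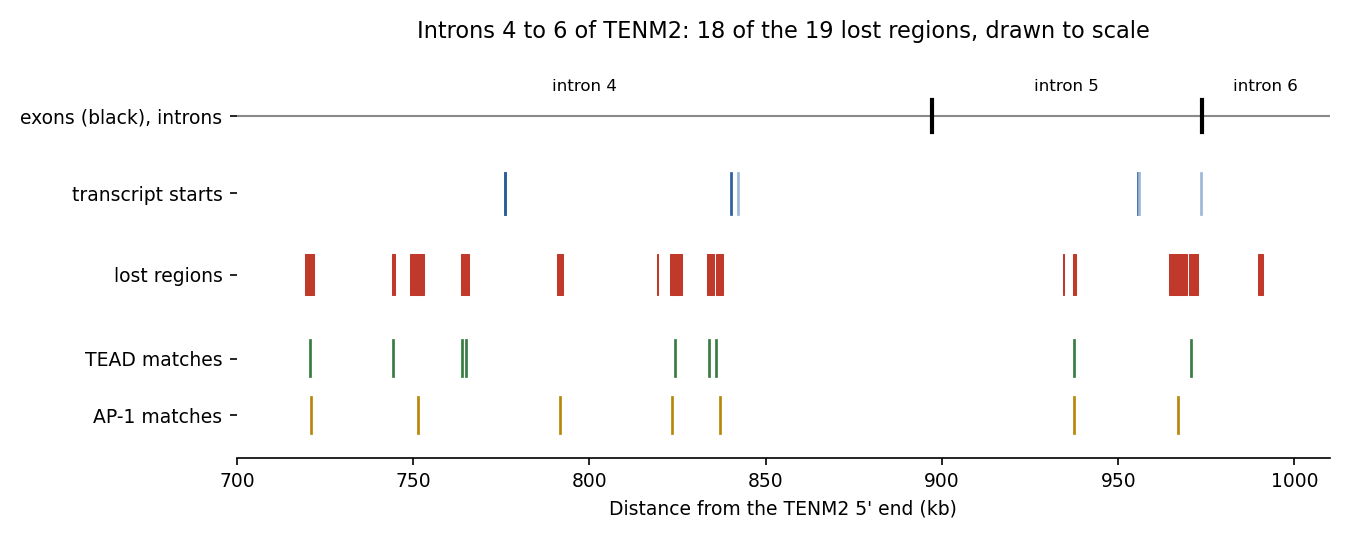
Distance from the TENM2 5′ end (kb) for introns 4 to 6, with lost regions drawn to scale in red, starts of protein-coding transcripts in dark blue, starts of other transcripts in light blue, and matches to the TEAD (green) and AP-1 (yellow) motifs inside the lost regions. The 11 regions of the first group lie on both sides of the start at 775.9 kb and end 2151 bp before the start at 840.1 kb.

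The annotated transcripts of TENM2 begin at several places, and this stretch of the gene contains internal starts of protein-coding transcripts. TENM2 has 15 transcripts with 13 distinct starts, and 6 of the transcripts are protein-coding. TENM2-203, at the 5′ end, and TENM2-211, which starts 594.6 kb downstream, have all 19 regions within their bodies. For TENM2-211, 11 regions lay in its first intron and 6 in its second. TENM2-205 starts at 775.9 kb, with 5 regions before its start and 14 behind it, and TENM2-206 starts at 775.97 kb. Of those 14, 6 lay in the first intron of TENM2-205, of 120.8 kb, and 12 in that of TENM2-206, which is longer. TENM2-214 starts at 840.1 kb, just past the first group, with 11 regions before its start and 8 behind it. TENM2-215 starts at 955.6 kb, inside the second group, with 13 regions before its start and 6 behind it.

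No region covered an annotated transcript start of TENM2. The closest, region 17 (chr5:167949078-167951599), ended 776 bp before the start of TENM2-208, a transcript with a retained intron. Region 11 (chr5:167815011-167816962) ended 2151 bp before the start of TENM2-214, which is protein-coding. These 2 were the only regions within 2500 bp of a TENM2 start, the distance used by the study to assign regions to nearby genes. Starts of other annotated genes lay within this distance of regions 2, 17 and 18. The study also used predicted links between distal regions and promoters, which were not used here. Region 10 lay 4722 bp before the same start as region 11. Within 10 kb of any TENM2 start there were 6 regions, of which 3 were within 10 kb of a protein-coding start. The others were up to 54845 bp away, so that the regions were mostly distal to every annotated start of TENM2. Starts of other genes were nearer to some of them. These lay 20501 bp from region 1, 1689 bp from region 2, 6840 bp from region 3 and 9478 bp from region 4. For regions 18 and 19 the distances were 1602 bp and 21007 bp.

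The sequence at the internal starts differed from that at the 5′ end. In the 300 bases around each start (250 before to 50 after), TENM2-203 had a GC content of 71.3% and a CpG observed/expected ratio of 0.984, as CpG islands do. The internal protein-coding starts had GC contents between 41.7% (TENM2-215) and 53.0% (TENM2-206) and CpG ratios between 0.223 (TENM2-214) and 0.440 (TENM2-211). The CpG-rich start was far from the lost regions, and the starts among them were CpG-poor. CpG-poor too was the start of TENM2-211, which lay 124600 bp from the nearest lost region.

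Lost regions of TENM2 overlapped 3 other annotated genes, all long non-coding RNAs (lncRNAs), at 7 of the 19. Regions 2 and 3 overlapped ENSG00000253357, on the same strand as TENM2, and region 2 lay 1689 bp from its start. Regions 14 to 17 overlapped ENSG00000253660 on the opposite strand, and the edge of region 17 was 1870 bp from its start. Region 19 overlapped ENSG00000253925, also on the opposite strand. Region 18 overlapped no other gene and lay 1602 bp from the start of ENSG00000253947. Acetylation at these places cannot be assigned to TENM2 or to the overlapping lncRNA from position alone.

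The TEAD factors, which bind DNA for the co-activator YAP1, were followed by the study in these cells. The study reported their motif as enriched in the lost regions as a set. It also reported binding of TEAD4 at that set, from chromatin immunoprecipitation and sequencing in LX-2 cells. Binding at single TENM2 regions was not examined here. The TEAD motif was searched in each region on both strands. The full motif was spelled ACATTCCA, ACATTCCT, GCATTCCA or GCATTCCT, and its core CATTCC, which every full match contains. The full motif was present in 9 of the 19 lost TENM2 regions, with 10 matches. The following matches come from both groups and the isolated region, and are shown with 20 bases on each side on the strand where the motif reads 5′ to 3′, with the full motif in capitals.
TENM2 region 1, chr5:167699638-167699685, plus strand: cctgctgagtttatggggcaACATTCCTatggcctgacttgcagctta
TENM2 region 2, chr5:167723339-167723386, minus strand: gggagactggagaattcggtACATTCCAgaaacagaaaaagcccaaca
TENM2 region 10, chr5:167813019-167813066, plus strand: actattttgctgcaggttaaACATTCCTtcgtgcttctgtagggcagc
TENM2 region 17, chr5:167949755-167949802, plus strand: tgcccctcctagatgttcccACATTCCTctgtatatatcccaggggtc
TENM2 region 19, chr5:168107749-168107796, minus strand: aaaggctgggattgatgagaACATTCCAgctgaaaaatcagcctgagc
Matches were eligible to be shown only if the 24 bases centred on the motif occurred once on chromosome 5, so this holds for these 5 by selection. Region 5, 10074 bp before the start of TENM2-205, was the only TENM2 region with 2 full matches. Only 1 of them met this condition, and it is shown.
TENM2 region 5, chr5:167743871-167743918, plus strand: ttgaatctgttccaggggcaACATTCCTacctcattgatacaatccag
Its central 24 bases also occurred once on chromosome 5. Only sequence of the reference genome is shown, and a match is not evidence of binding.

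AP-1, the dimer of FOS and JUN proteins that often shares enhancers with TEAD factors, has the motif TGACTCA or TGAGTCA. It was present in 7 of the 19 regions, once in each. Both motifs occurred together in 4 regions, 1, 8, 11 and 13, with 488, 853, 1084 and 185 bases between them. Region 13 (chr5:167916058-167917168), in intron 5, thus held the closest pair. A stretch of 300 bases of this region is shown because it contains both, with the AP-1 motif and the TEAD core in capitals, AP-1 first.
TENM2 region 13, chr5:167916310-167916609, plus strand: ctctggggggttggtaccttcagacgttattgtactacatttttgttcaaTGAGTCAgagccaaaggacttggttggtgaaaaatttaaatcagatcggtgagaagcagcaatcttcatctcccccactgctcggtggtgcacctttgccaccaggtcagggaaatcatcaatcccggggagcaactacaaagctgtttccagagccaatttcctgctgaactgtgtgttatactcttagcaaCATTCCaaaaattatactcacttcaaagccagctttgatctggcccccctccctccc
In this stretch the core is flanked by A on both sides, which completes the full motif.

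Compared with all lost regions, those of TENM2 held the TEAD motif at a similar level. The full motif was present in 47.4% of TENM2 regions, 42.9% of all lost regions and 27.5% of all gained regions. Per kb of sequence it occurred 0.319 times in the TENM2 regions, 0.324 times in all lost regions, 0.207 times in all gained regions, 0.223 times in the rest of the TENM2 gene and 0.197 times in 2000-bp windows of chromosome 5. The core gave the same order, with 0.861 matches per kb in TENM2 regions, 0.862 in all lost regions and 0.652 in the rest of the gene. With 10 matches in 19 regions of 1 locus, which are not independent, these densities are descriptions. The TENM2 regions thus looked like other lost regions for this motif.

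For the other motifs TENM2 regions were not uniformly like the whole list. AP-1 occurred 0.223 times per kb, against 0.323 in all lost regions and 0.351 in all gained regions, and 0.170 in the rest of the gene. RUNX (TGTGGTT), the motif of the RUNX factors, occurred 0.319 times per kb against 0.220 in all lost regions, with 10 matches in 6 regions, of which region 11 held 3. The share of regions with this motif was level, 31.6% in TENM2 and 30.9% in all lost regions. The SRF motif (the CArG box) was absent from all 19 regions and was present in 14.7% of all lost regions. TGATGCAA, a composite C/EBP-ATF4 motif, was present in 2 regions, 6 and 14. That is 10.5% of the TENM2 regions, against 4.36% of all lost and 10.1% of all gained regions. As no match says only that these letters are not in these windows, the absence of the SRF motif carries no statement on the factor.

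**Figure D3:**
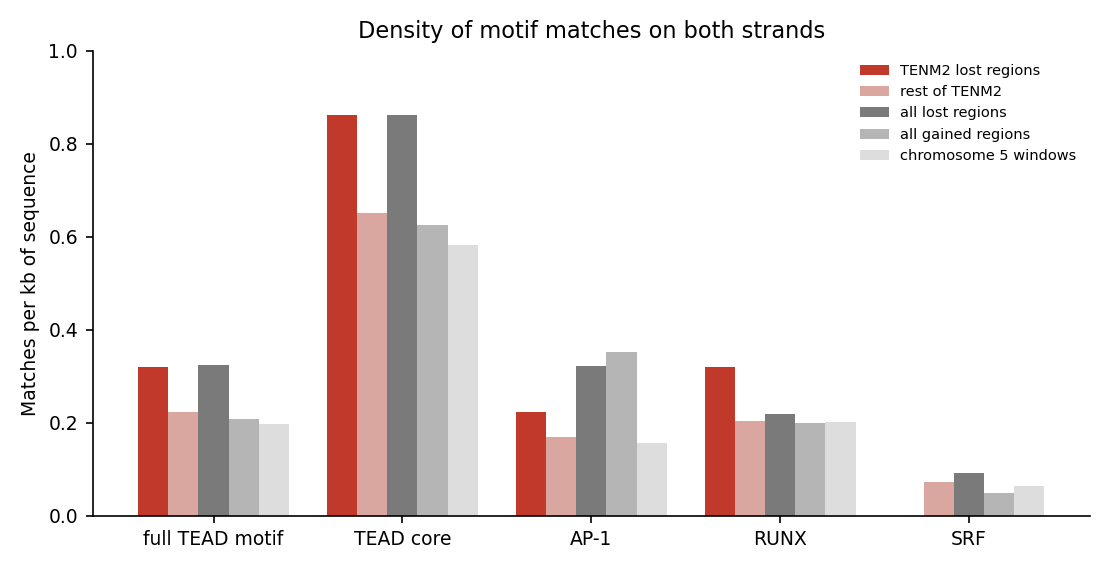
Matches per kb of sequence on both strands for 5 motifs in the 19 lost TENM2 regions, the rest of the TENM2 gene, all lost regions, all gained regions and 2000-bp windows of chromosome 5. For the full TEAD motif the TENM2 regions (0.319) and all lost regions (0.324) are nearly level, and for AP-1 the TENM2 regions (0.223) are below all lost regions (0.323).

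In base composition the TENM2 regions were poorer in GC than most lost regions. Their GC content ranged from 35.6% (region 4) to 50.3% (region 7) with a median of 41.6%, and 16 of the 19 were below the median of all lost regions, 46.8%. The locus as a whole was also poor in GC. The TENM2 gene outside the lost regions had a GC content of 39.7% and chromosome 5 one of 39.5%, against 42.4% over the lost regions together. The CpG observed/expected ratio was low, with a median of 0.197 against 0.202 in all lost regions, and no region exceeded 0.321. None of the 19 regions had the composition of a CpG island.

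**Figure D4:**
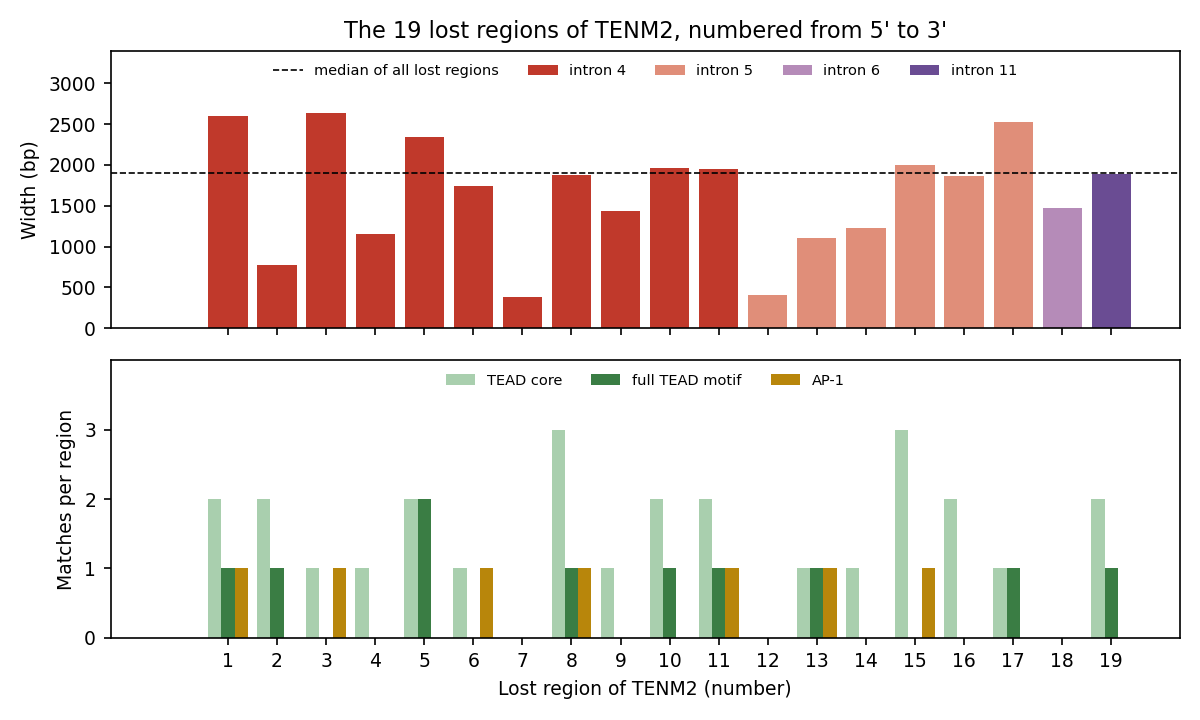
The 19 lost TENM2 regions in order from 5′ to 3′, with their width in bp (top, coloured by intron of TENM2-203, the dashed line marking the median of all lost regions) and the number of matches to the TEAD core, the full TEAD motif and AP-1 (bottom). Widths run from 386 to 2638 bp, and regions 7, 12 and 18 hold no match to any of these motifs.

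TENM4 (ENSG00000149256), on the minus strand at chr11:78652829-79441030, spans 788 kb and had 1 lost region, chr11:79087002-79088447, of 1446 bp. It lay in intron 4 of the reference transcript, with its centre 353 kb from the 5′ end, or 44.8% of the way along the gene. It touched no exon and overlapped no other gene. The nearest start of a TENM4 transcript, TENM4-209, was 10609 bp away, and the nearest start of another gene, the lncRNA ENSG00000255345, 4401 bp away. Its GC content was 49.6% and its CpG ratio 0.180. It held 2 full TEAD matches, 4 cores and no AP-1 match. A stretch of 300 bases that holds 3 of the 4 cores is shown, with the core in capitals, written as GGAATG where it is read on the opposite strand.
TENM4 region 1, chr11:79087193-79087492, plus strand: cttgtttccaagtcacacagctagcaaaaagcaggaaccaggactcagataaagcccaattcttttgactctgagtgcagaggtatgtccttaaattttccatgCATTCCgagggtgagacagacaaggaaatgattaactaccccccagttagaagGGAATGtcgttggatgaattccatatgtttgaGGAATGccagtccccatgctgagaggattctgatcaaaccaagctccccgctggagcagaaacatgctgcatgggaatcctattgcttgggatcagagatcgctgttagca
The last core of this stretch belongs to a full match (GCATTCCT on the minus strand). Like those of TENM2, this region was intronic and far from the 5′ end, but a single region supports no further comparison.

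TENM1 (chrX:124375903-125204312, minus strand, 828 kb) and TENM3 (chr4:182143987-182803024, plus strand, 659 kb) had no listed region in either direction. Their surroundings were nearly empty too. Before the 5′ end of TENM1 the nearest lost region was 4450 kb away and the nearest gained region 4968 kb away, and for TENM3 the distances were 4658 kb and 5351 kb. Past the 3′ end, the nearest listed region was a gained one at 413.8 kb for TENM1, overlapping STAG2, a cohesin subunit, and a lost one at 295.1 kb for TENM3. Whether these genes carry H3K27ac in LX-2 cells was not shown by the lists.

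The flanking genes of the members with a region were examined by position. For TENM2, the nearest protein-coding gene on the 5′ side was MAT2B, a regulatory subunit of methionine adenosyltransferase, 3459 kb away and without a listed region. On the 3′ side WWC1, whose product KIBRA is an upstream regulator of the Hippo pathway, began 27.5 kb away and had 1 lost region, chr5:168470951-168473384, at its 3′ end. For TENM4, NARS2, the mitochondrial asparaginyl-tRNA synthetase, lay 77.6 kb beyond the 3′ end with 1 lost region, and FAM181B lay 3289 kb before the 5′ end with none. The nearest gained region beyond the 3′ end was 1682 kb away for TENM2 and 233.4 kb away for TENM4. No gained region thus lay between 7715 kb before and 1682 kb past TENM2.

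Other long genes were compared with TENM2 by their count of lost minus gained regions. Of 323 protein-coding genes of 500 kb or more, 94 had a lost region, 89 a gained region and 183 neither, and 3 had 10 or more lost regions. Among the 5 genes nearest to TENM2 by this measure were THSD4 (14 lost, 1 gained), ATRNL1 (8 and 0), CAMTA1 (7 and 0) and KCNJ6 (7 and 0). THSD4 encodes a protein of microfibrils, CAMTA1 a calmodulin-binding transcription factor and KCNJ6 a potassium channel.

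**Figure D5:**
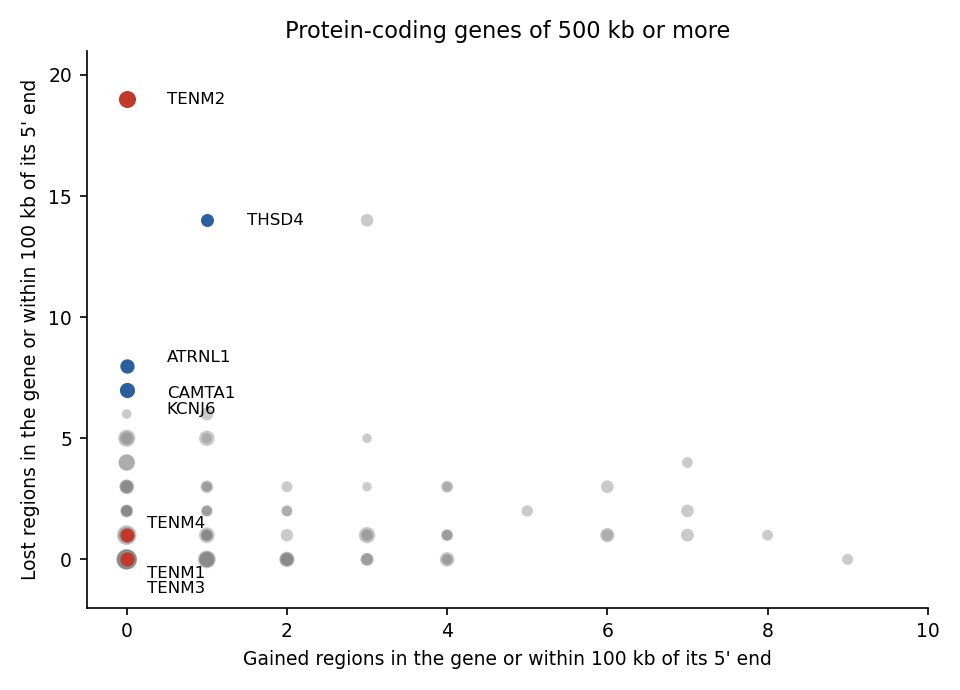
Gained (x axis) and lost (y axis) regions in the body or within 100 kb of the 5′ end of the 323 protein-coding genes of 500 kb or more, with point area in proportion to gene length, the 4 teneurin genes in red, THSD4, ATRNL1, CAMTA1 and KCNJ6 in blue and all others in grey. TENM2 lies at 19 lost and 0 gained, above THSD4 at 14 lost, and TENM1 and TENM3 lie at 0 and 0 with most long genes.

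The empty 5′ part was not shared by all of these genes. The region closest to the 5′ end was 719 kb away in TENM2, 733 kb in ATRNL1 and 512 kb in CAMTA1, but 181 kb in THSD4 and 49.1 kb in KCNJ6.

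The partners of teneurins were followed as a list of 12 genes. Of these, 2 had lost regions, 3 had gained regions, 7 had neither and none had both. These counts lie near the shares for all protein-coding genes given above, 21.6% with a lost and 30.5% with a gained region. Among the receptors, ADGRL1 and ADGRL3 had no listed region, and the latrophilin ADGRL2 had 2 gained regions, chr1:81702192-81702555, which lay 2422 bp from a transcript start, and chr1:81703104-81705032. Among the FLRT genes, FLRT1 and FLRT3 had none, and FLRT2 had 2 gained regions upstream of its 5′ end. One of them, chr14:85526700-85528867, lay 1277 bp away, and the other, chr14:85516372-85517467, lay 12677 bp away. Both overlapped other annotated genes, so that position alone does not assign them to FLRT2.

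The netrin receptors of the UNC5 family, which bind FLRT proteins, showed both directions in different genes. UNC5C had 1 lost region, chr4:95506569-95508401, in the gene body, UNC5D had 1 gained region in its body, and UNC5A and UNC5B had none. DAG1, which encodes dystroglycan, a receptor for the extracellular matrix, had 3 lost regions. One of these, chr3:49468473-49471041, covered its 5′ end, and the others lay 6135 bp (chr3:49460243-49462578) and 23776 bp (chr3:49443555-49444937) upstream. Other protein-coding genes nearby count the same 3 regions under the rule used, so that position alone does not assign them to DAG1. MBD1, a methyl-CpG binding protein described to bind the intracellular part of a teneurin, had none.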

How the data were processed

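Reads had been aligned by the authors to hg38 (Chromap), peaks called per library with input DNA as background (MACS2, version 2.1.1.20160309 in the submitters' processing notes), and binned peaks compared between the arms over the 8 H3K27ac libraries (MAnorm2). The deposited lists, 1 of lost and 1 of gained regions, have 3 columns, chromosome, start and end, in bp, which are positions and carry no signal or p-value. The lists are named with an adjusted p of 0.15, a looser limit than the methods give. Starts were converted to count from 1. Genes came from GENCODE release 44, an earlier release having been used by the study, and every region lay within the chromosome lengths of the genome used. Sequences came from hg38, and promoters from RefSeq. Of 35116 RefSeq promoters, 4.15% held the full TEAD motif, as did 1 of 2 of TENM2, at chr5:167072992-167073291. That promoter does not lie at any of the annotated TENM2 transcript starts described above. The 300-base windows at those starts held no full match. Overlaps, distances and motif matches were computed in Python 3.11.15, with the functions tested on simulated data, and plotted with matplotlib 3.10.9. No statistical test was made. Genes named are the 4 members, the 12 partners, genes overlapped by a region, the nearest protein-coding gene on each side of a member with a region, and the 5 protein-coding genes of at least 500 kb with the most lost minus gained regions after TENM2. Some items that this rule selects, and the results that need them, are not reported here. STAG2 is named in addition, as the site of the nearest listed region. The members and lists were chosen with earlier results of these data known.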

Additional observations from a re-analysis of the deposited data

How the results depend on the processing

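Of 47 recomputed values, 42 were within 1.5 times the main count, but 30 of these were 0 on both sides, and no listed region lay upstream of a member within any window tried, so the windows had nothing to add. The counts of 19 lost regions at TENM2, 1 at TENM4 and 0 elsewhere stayed with windows of 50 kb or 250 kb, with the gene body alone and with region centres, and merging gave 13 blocks at TENM2. The 2 regions within 2500 bp of a teneurin transcript start became 0 with the gene's 5′ end alone, 1 with protein-coding transcripts and 6 within 10 kb. The rank of TENM2 moved from 1 to 187 per 100 kb, a measure on which short genes rank high by construction. Teneurin regions with a TEAD match rose from 10 to 17 with the core alone and fell to 7 in the central 1000 bp. Over all lost regions the share with a match also rose with the core, from 42.9% to 73.5%. No paired analysis was possible because no measurement of single libraries was at hand. Without such values, neither fits that omit a replicate nor a stricter threshold could be run, and the influence of depth is unknown.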

Other observations

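The lost regions nearest to TENM2 and to TENM3 past their 3′ ends both lay at genes of the WWC family, whose products act upstream in the Hippo pathway. At WWC1 the region (chr5:168470951-168473384) lay at the 3′ end of the gene, 206.8 kb past TENM2. At WWC2 the region (chr4:183098125-183100309) covered the 5′ end, 295.1 kb past TENM3. WWC1 and WWC2 each had 1 lost and 0 gained regions, and WWC3, the other paralog, had 0 and 0. Further along chromosome 5, SLIT3, which encodes a secreted ligand of ROBO receptors, had 2 lost and 0 gained regions, 1 inside the gene (chr5:169160645-169162381) and 1 before its 5′ end (chr5:169348973-169352102). WWC2, WWC3 and SLIT3 were named after their values were seen. With 21.6% of protein-coding genes holding a lost region, these counts are values only.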
